A study of Mus musculus with 4 samples.

Results

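The 10 genes described here encode proteins through which lymphocytes receive growth and differentiation signals from cytokines: the ligand IL-15 (Il15), the receptor chains Il15ra, Il2rb, Il2rg, Il7r, Il21r, Il4ra, Il12rb1 and Il12rb2, and the tyrosine kinase Jak3. They were taken by gene symbol, and all 10 were found among the 24421 gene rows of each count table. RNA sequencing was performed on whole J558 allografts from 4 female BALB/c mice, with 2 libraries per group. J558 is a mouse plasma cell myeloma line, and each mouse carried a subcutaneous tumour of these cells in the right flank. Mice in the vehicle group received 0.5% methylcellulose, and mice in the TAK-931 group received this CDC7 inhibitor at 60 mg/kg, in each case by mouth once daily until day 6. Every tumour therefore holds J558 cells together with immune, stromal and vascular cells of an immune-competent host of the strain from which the line was derived. Mice of this strain and sex in the study were 4 weeks old. The comparison asks how the transcripts of this cytokine system differed between vehicle-treated and TAK-931-treated tumours.

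The common gamma chain encoded by Il2rg is shared by the receptors for IL-2, IL-4, IL-7, IL-9, IL-15 and IL-21, and JAK3 is the kinase bound to it. Each cytokine adds a chain of its own to this shared chain, and the assembled receptor works through JAK1 and JAK3 to phosphorylate STAT transcription factors in T, B and NK cells. IL-15 is displayed to neighbouring cells on IL-15 receptor alpha and is known as a survival factor of NK cells and CD8 memory T cells. The receptor for IL-12 is built from the chains of Il12rb1 and Il12rb2, works through TYK2, JAK2 and STAT4, and is known for driving interferon gamma production.

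All 10 genes were higher in each TAK-931 library than in either vehicle-treated library, whereas 30.0% of the 13669 genes tested met this condition. The distance was large for Il2rb, Il7r, Il21r, Il2rg and Il12rb2, smaller for Il4ra and Il15ra, and slight for the 3 genes Il15, Il12rb1 and Jak3. The lower of the treated libraries was between 1.03-fold and 1.11-fold of the higher vehicle library for these 3, and at least 1.72-fold of it for the other 7. None of the 10 reached an adjusted p under 0.05 in edgeR's quasi-likelihood test with Benjamini-Hochberg adjustment, and neither did any of the genes tested (0.00%). At an unadjusted p under 0.05, 2475 genes passed in that test, and 11.6% of all genes tested did so with a higher level in TAK-931. Among the 10, the 6 genes Il2rb, Il2rg, Il7r, Il15ra, Il21r and Il4ra passed at that unadjusted level, each of them higher in TAK-931. With limma-voom 0 genes passed the adjustment. With DESeq2 1411 genes passed it, 9.78% of the genes given an adjusted p were called higher in TAK-931, and 5 of the 10 genes were called. The calls differed with the libraries used: with TAK-931-1 left out edgeR called 3996 genes and 4 of the 10 (Il7r, Il15ra, Il21r and Il4ra), and with TAK-931-2 left out it called 8424 genes and all 10. The median log2 fold change was 2.54 over the 10 genes and 0.02 over all genes tested. With at least 10 counts required in every library, which left out Il7r and Il12rb2, these medians were 1.81 and 0.03, and 5 of the 8 genes left had an unadjusted p under 0.05, as did 18.5% of all genes in that fit.

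**Figure D1:**
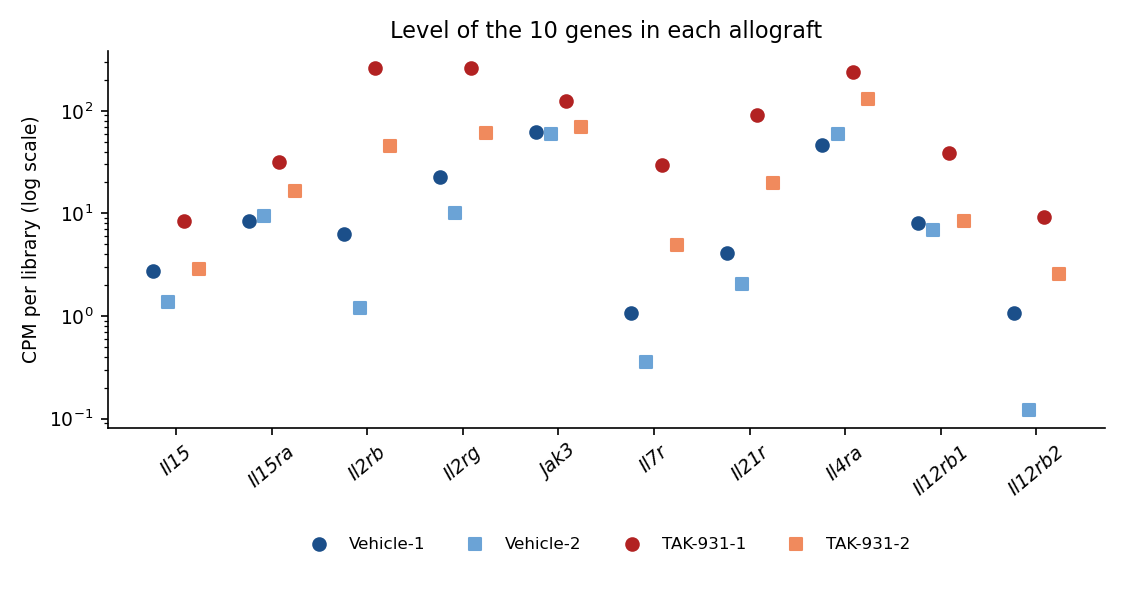
Level of each gene in each of the 4 libraries, in CPM (counts scaled to a common library size) on a log axis, where a point is 1 library, circles are replicate 1 and squares replicate 2. Both TAK-931 points lie above both vehicle points for all 10 genes, TAK-931-1 is always the higher of the pair, and the spread within the treated pair is between 1.81-fold and 6.01-fold.

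The ligand stood apart from vehicle in 1 treated library, and its presenting receptor in both. Il15 lies on chr8:82331624-82402586 (mm10, minus strand), and its level was 2.73 CPM (Vehicle-1) and 1.38 (Vehicle-2) against 8.38 (TAK-931-1) and 2.86 (TAK-931-2). Only TAK-931-1 stood away from the others, and TAK-931-2 was at 1.05-fold of Vehicle-1. In edgeR the log2 fold change of Il15 was 1.45 (SE 0.81, n = 2 per group), with an unadjusted p of 0.141 and an adjusted p of 0.350, and it ran from 0.47 without TAK-931-1 to 2.01 without Vehicle-1.

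Il15ra encodes the high-affinity chain that holds IL-15 at the cell surface and lies on chr2:11705293-11733985 (plus strand). Its level was 8.36 CPM (Vehicle-1) and 9.53 (Vehicle-2) against 31.9 (TAK-931-1) and 16.4 (TAK-931-2). The vehicle libraries were close to each other, and both treated libraries lay above them without overlap. The log2 fold change was 1.43 (SE 0.45) with an unadjusted p of 0.0302 and an adjusted p of 0.275 in edgeR. It ran from 0.87 without TAK-931-1 to 1.81 without TAK-931-2.

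The signalling chains shared by the IL-2 and IL-15 receptors differed more between the groups than the ligand did. Il2rb encodes the beta chain (CD122) and lies on chr15:78480549-78495066 (minus strand). Its counts were 105 (Vehicle-1) and 20 (Vehicle-2) against 4955 (TAK-931-1) and 771 (TAK-931-2), which corresponds to 6.23, 1.20, 261 and 45.0 CPM. TAK-931-1 was 70.3-fold of the vehicle mean and TAK-931-2 was 12.1-fold of it, and the level was also 5.19-fold higher in Vehicle-1 than in Vehicle-2. Its log2 fold change of 5.36 (SE 1.33) was the largest of the 10, with an unadjusted p of 0.0134 and an adjusted p of 0.275 in edgeR. DESeq2 gave Il2rb an adjusted p of 4.2e-06. With 1 library left out the edgeR log2 fold change ran from 3.59 (without TAK-931-1) to 6.97 (without Vehicle-1).

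Il2rg, the common gamma chain, lies on chrX:101264385-101268255 (minus strand). It was at 22.4 CPM (Vehicle-1) and 10.1 (Vehicle-2) against 262 (TAK-931-1) and 60.2 (TAK-931-2). The treated libraries were at 16.1-fold and 3.71-fold of the vehicle mean, and the vehicle libraries differed from each other by 2.23-fold. The log2 fold change was 3.31 (SE 0.89), with an unadjusted p of 0.0181 and an adjusted p of 0.275 in edgeR and an adjusted p of 0.000495 in DESeq2. The value was 1.89 without TAK-931-1 and 3.99 without TAK-931-2.

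Jak3, whose product docks on the common gamma chain, lies on chr8:71676383-71690577 (plus strand). The gene was at 62.5 CPM (Vehicle-1) and 59.0 (Vehicle-2) against 126 (TAK-931-1) and 69.2 (TAK-931-2). Only TAK-931-1 stood clear of the rest, at 2.07-fold of the vehicle mean, and TAK-931-2 was at 1.14-fold. The log2 fold change was 0.68 (SE 0.35; 0.18 without TAK-931-1 and 1.02 without TAK-931-2), with an unadjusted p of 0.119 and an adjusted p of 0.330 in edgeR. Of the exon bases of Jak3, 406 are shared with Insl3 on the same strand, so that part of its counts is uncertain. The exons of the other 9 genes overlap no other gene in the tables.

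The chains that other common gamma chain receptors add for themselves differed by unlike amounts. Il7r encodes the IL-7 receptor alpha chain, needed by naive and memory T cells, and lies on chr15:9506159-9529876 (minus strand). Its counts were 18 (Vehicle-1) and 6 (Vehicle-2) against 566 (TAK-931-1) and 85 (TAK-931-2). TAK-931-1 was at 41.8-fold of the mean vehicle CPM and TAK-931-2 at 6.95-fold. With counts this low in the vehicle tumours, the 95% Poisson interval of the Vehicle-2 count ran from 2.20 to 13.1 and covered counting error only. The log2 fold change was 4.59 (SE 1.21; 2.78 without TAK-931-1 and 5.55 without Vehicle-1), with an unadjusted p of 0.0166 and an adjusted p of 0.275 in edgeR and an adjusted p of 0.000298 in DESeq2.

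Il21r and Il4ra lie side by side on chromosome 7, and the levels of both were separated between the groups. Il21r, which encodes the receptor chain for the T helper cytokine IL-21, is at chr7:125603429-125633570 and Il4ra at chr7:125552282-125579474, both on the plus strand. Il21r was at 4.15 CPM (Vehicle-1) and 2.04 (Vehicle-2) against 91.0 (TAK-931-1) and 19.9 (TAK-931-2), which put the treated libraries at 29.4-fold and 6.43-fold of the vehicle mean. For this gene the log2 fold change came to 4.16 (SE 0.94; 2.68 without TAK-931-1 and 4.85 without TAK-931-2), with an unadjusted p of 0.00961 and an adjusted p of 0.275 in edgeR and an adjusted p of 2.5e-05 in DESeq2.

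Il4ra encodes the alpha chain of the receptors for IL-4 and IL-13, which many cell types outside the lymphocytes also carry. It was at 46.4 CPM (Vehicle-1) and 59.5 (Vehicle-2) against 238 (TAK-931-1) and 129 (TAK-931-2). The fold over the vehicle mean was smaller than for its neighbour, at 4.50 and 2.44, but the treated libraries were also closer to each other. The log2 fold change was 1.79 (SE 0.39) with the lowest unadjusted p of the 10 genes in edgeR, 0.00831 (adjusted p 0.275), and it was between 1.28 and 2.15 with any 1 library left out. In DESeq2 its adjusted p was 0.00171.

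The receptor chains for IL-12 behaved differently from each other. Il12rb1, which also serves the IL-23 receptor, lies on chr8:70808449-70821423 (plus strand) and was at 8.06 CPM (Vehicle-1) and 6.83 (Vehicle-2) against 38.6 (TAK-931-1) and 8.34 (TAK-931-2). TAK-931-2 was thus level with the vehicle tumours, at 1.12-fold of their mean, and the difference between the groups rested on TAK-931-1. The edgeR log2 fold change was 1.66 (SE 0.81), with an unadjusted p of 0.104 and an adjusted p of 0.318, and it was 0.16 without TAK-931-1 and 2.35 without TAK-931-2.

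Il12rb2, the chain that confers IL-12 responsiveness on T helper 1 and NK cells, lies on chr6:67292018-67376137 (minus strand). Its counts were 18 (Vehicle-1) and 2 (Vehicle-2) against 173 (TAK-931-1) and 44 (TAK-931-2). The count of 2 is at or under the 3 counts that a count of 0 allows, and the vehicle libraries differed by 8.90-fold in CPM. The edgeR log2 fold change was 3.28 (SE 1.30; 2.09 without TAK-931-1), with an unadjusted p of 0.0592 and an adjusted p of 0.279. Without Vehicle-1, which leaves the library with 2 counts as the only vehicle value, it was 5.51 with an unadjusted p of 0.0156 and an adjusted p of 0.454 in edgeR. Il7r and Il12rb2 passed the filter on low counts only through the treated libraries, and the other 8 genes passed it in the vehicle libraries as well. These 2 genes therefore had to be higher in TAK-931 to be tested at all.

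Within the treated pair the genes were not alike. All 10 were higher in TAK-931-1 than in TAK-931-2, from 1.81-fold for Jak3 to 6.01-fold for Il7r, against 50.4% of all genes tested. In the vehicle pair 8 of 10 were higher in Vehicle-1, with Il15ra and Il4ra as the exceptions, against 48.8% of all genes tested. Relative to the vehicle mean, the middle log2 ratio among the 10 (their median) was 3.24 for TAK-931-1 and 1.64 for TAK-931-2. Over all genes tested the corresponding medians were -0.02 and -0.01. Library totals were between 16487902 and 19589339 counts. Over all genes, too, the counts of the treated libraries differed more than those of the vehicle libraries, by a chi-square over its degrees of freedom of 284 compared with 8.01.

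**Figure D2:**
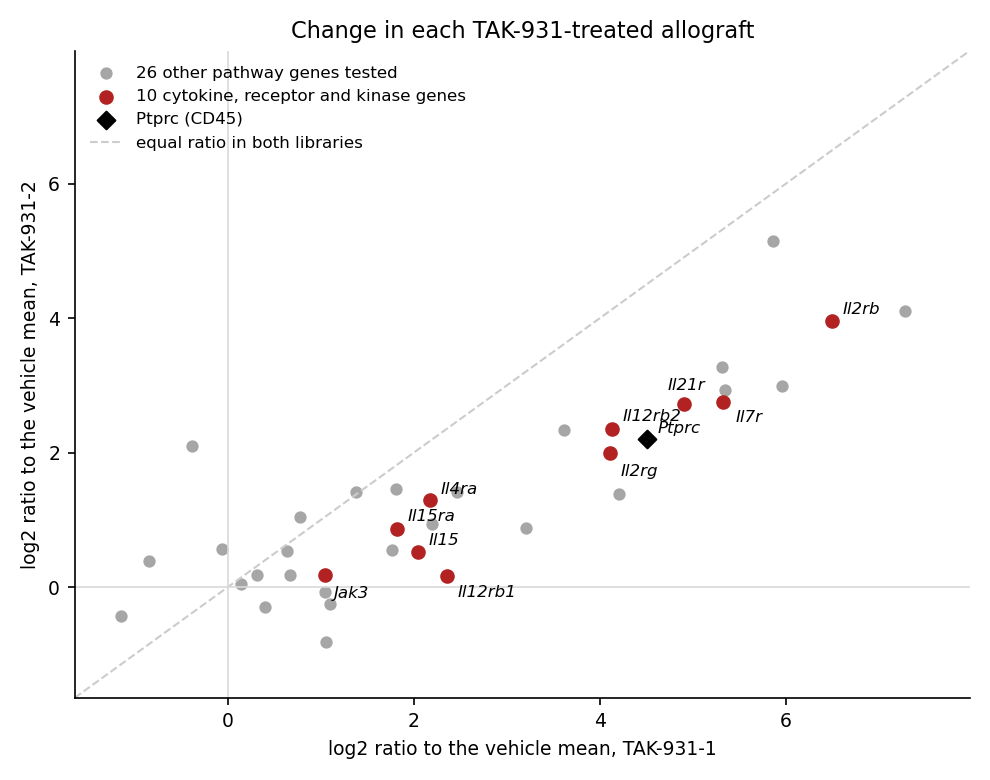
Log2 ratio of CPM to the vehicle mean in TAK-931-1 (x axis) and in TAK-931-2 (y axis) for the 10 genes (red), the 26 tested genes of the same pathways (grey) and Ptprc (black diamond). All 10 genes lie above 0 on each axis and below the dashed line of equal ratios, from Jak3 at 1.05 and 0.19 to Il2rb at 6.50 and 3.97.

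Because reads per gene grow with transcript length, levels of different genes were compared per kilobase of exon. In the vehicle tumours Jak3 was the highest of the 10, at 15.3 CPM per kilobase in Vehicle-1 and 14.5 in Vehicle-2. Il2rg at 13.5 was next in Vehicle-1 and Il4ra at 11.7 was next in Vehicle-2, so the order of these 2 genes differed between the vehicle tumours. In the treated tumours Il2rg led, with 157.5 (TAK-931-1) and 36.2 (TAK-931-2) CPM per kilobase. Il2rb was second in TAK-931-1 at 96.8, whereas in TAK-931-2 Il4ra at 25.3 was second. It was followed there by Jak3 at 16.9 and Il2rb at 16.7. Il12rb2 or Il7r was the lowest gene of the 10 in every library, at or under 0.362 CPM per kilobase in the vehicle tumours for each.

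The make-up of the receptor transcripts differed accordingly. Jak3 contributed 29.7% and 34.6% of the summed CPM per kilobase of the 10 genes in the vehicle libraries, and 7.41% and 14.3% in TAK-931-1 and TAK-931-2. Il2rb made up 4.48% and 1.07% in the vehicle tumours and 23.3% and 14.1% in the treated tumours. The share of Il21r was 3.09% and 1.87% in vehicle and 8.41% and 6.44% in TAK-931. For Il4ra the groups overlapped, with 17.7% and 28.0% in vehicle and 11.3% and 21.4% in TAK-931.

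**Figure D3:**
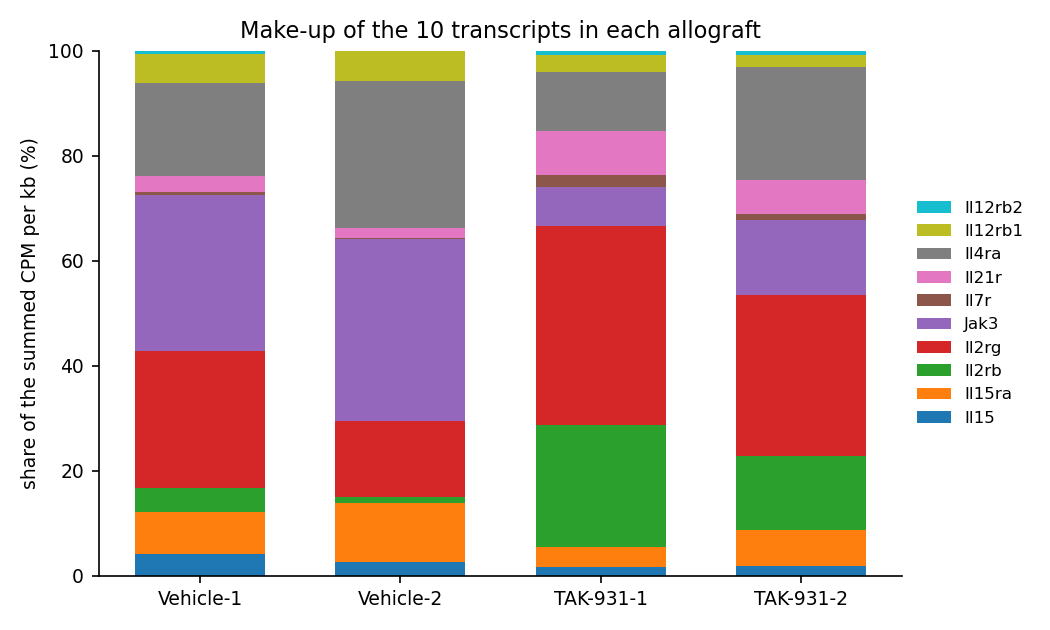
Share of each gene in the summed CPM per kilobase of the 10 genes (y axis, percent), with 1 stacked bar per library and 1 colour per gene. Jak3 takes up 29.7% and 34.6% of the vehicle bars and 7.41% and 14.3% of the TAK-931 bars, where Il2rb takes up 23.3% and 14.1%.

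Chains that pair in 1 receptor were also compared with each other per kilobase. The ratio of Il2rb to Il2rg was 0.171 (Vehicle-1) and 0.0734 (Vehicle-2) against 0.615 (TAK-931-1) and 0.461 (TAK-931-2), without overlap between the groups. For Il21r over Il2rg the ratios were 0.118, 0.129, 0.222 and 0.211 in the same order, again apart. Il12rb2 over Il12rb1 was 0.129 and 0.0171 in vehicle and 0.230 and 0.300 in TAK-931, with the vehicle values resting on few counts. By contrast, Il15 over Il15ra overlapped between the groups, with 0.513 and 0.228 in vehicle and 0.413 and 0.274 in TAK-931. Il2ra, the alpha chain that makes the IL-2 receptor high in affinity, was between 0.0458 and 0.0696 of Il2rb in the 4 libraries, on 12 and 2 Il2ra counts in the vehicle tumours. These ratios are descriptions of 2 libraries per group and were not tested.

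Genes of the same pathways outside the 10 were taken from lists of other cytokines, other receptor subunits, kinases and STATs, and feedback and response genes. Of the 36 genes listed, 26 passed the filter on low counts, 13 had an unadjusted p under 0.05 with a higher level in TAK-931, 0 had one with a lower level, and 0 passed the adjustment in edgeR. Of these 13, the 5 genes Il12b, Il27, Il2ra, Ifng and Tbx21 passed the filter only through the treated libraries, so they had to be higher there to be tested. The median log2 fold change of the 26 was 1.14, and it was 0.68 with at least 10 counts required in every library. Of the 26, 18 were higher in both treated libraries than in both vehicle libraries, against 30.0% of all genes tested. An unadjusted p under 0.05 in edgeR with a higher level in TAK-931 was found for 11.6% of all genes tested.

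The ligands of the common gamma chain family other than IL-15, and the related IL-13, were near or under the limit of detection. Il9, Il13 and Il21 had 0 counts in all 4 libraries, and a count of 0 allows a level of up to 0.182 CPM in the shallowest library. Il2 had 6 counts in TAK-931-1 and 0 elsewhere, Il4 had 1 count in Vehicle-2 and 4 in TAK-931-2, and Il7 had 4 counts each in Vehicle-1 and TAK-931-1. No difference in these ligands was detectable at this depth. Of the 12 other cytokine genes 4 were tested, and the 2 that passed at an unadjusted p under 0.05 were Il12b and Il27.

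Il12b encodes the p40 subunit shared by IL-12 and IL-23 and had 2 counts (Vehicle-1) and 0 (Vehicle-2) against 178 (TAK-931-1) and 98 (TAK-931-2). The ratio of its summed counts, TAK-931 over vehicle and scaled for library size, was 128, with a 95% counting interval from 35.1 to 1064. Il12a, the p35 subunit needed for IL-12, had 1 count in all 4 libraries together. Il27, a subunit of the IL-12 family cytokine IL-27, had 4 and 3 counts in vehicle and 73 and 26 in TAK-931, with a log2 fold change of 3.64 (SE 0.90, unadjusted p 0.0123, adjusted p 0.275 in edgeR).

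Among the other receptor subunits, 3 of the 5 tested passed at an unadjusted p under 0.05. Il2ra had 12 and 2 counts in vehicle and 516 and 58 in TAK-931, a log2 fold change of 5.18 (SE 1.50). The IL-27 receptor gene Il27ra had 12 and 20 counts in vehicle and 805 and 134 in TAK-931, a log2 fold change of 4.71 (SE 1.05). Crlf2, a receptor chain for TSLP, had a log2 fold change of 1.29 (SE 0.48). The IL-13 receptor chain gene Il13ra1 overlapped between the groups, at 59.5 and 61.7 CPM in vehicle and 57.9 and 89.9 in TAK-931.

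Among the kinases and STATs, Jak1, Tyk2 and Stat4 passed at an unadjusted p under 0.05. Jak1, the partner of JAK3 on common gamma chain receptors, was at 30.3 and 26.4 CPM in vehicle and 263 and 52.2 in TAK-931, a log2 fold change of 2.47 (SE 0.83). Tyk2 was at 52.7 and 54.7 CPM in vehicle and 92.1 and 111 in TAK-931, so here TAK-931-2 was the higher of the treated libraries. Stat4, which carries the IL-12 signal, was at 1.07 and 2.52 CPM in vehicle and 32.6 and 4.49 in TAK-931. The STATs most used by IL-2, IL-7, IL-15 and IL-4, which are Stat5a, Stat5b and Stat6, had log2 fold changes of 0.58 (SE 0.28), 0.58 (SE 0.50) and 0.09 (SE 0.31) and did not pass.

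Feedback and response genes were mixed. Socs1 and Socs3, inhibitors that cytokine signalling itself turns on, had log2 fold changes of 1.64 (SE 0.35) and 1.40 (SE 0.20) and passed at an unadjusted p under 0.05. Ifng and Tbx21, the effector cytokine and the master factor of T helper 1 cells, also passed at that level, on few vehicle counts. Ifng had 32 and 2 counts in vehicle and 516 and 112 in TAK-931, with a log2 fold change of 4.05 (SE 1.47). Tbx21 had 4 and 2 counts in vehicle and 844 and 83 in TAK-931, with a log2 fold change of 7.05 (SE 1.50). Cish, a direct target of STAT5, was at 4.03 and 3.96 CPM in vehicle and 4.42 and 4.14 in TAK-931, with a log2 fold change of 0.10 (SE 0.49). Socs2, Pim1 and Bcl2 did not pass. Bcl2, a survival gene that these cytokines maintain in lymphocytes, was the only 1 of the 26 that was lower in both treated libraries. It was at 26.3 and 27.1 CPM in vehicle and 12.0 and 19.7 in TAK-931. Of the 13669 genes tested, 4474 were lower in both treated libraries.

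Transcripts that mark cell types moved with the 10 genes. In bulk tumour RNA, fewer cells of a type and less RNA per cell cannot be told apart, and the same holds for more. Ptprc (CD45), carried by nearly all white blood cells, was at 36.6 CPM (Vehicle-1) and 20.8 (Vehicle-2) against 633 (TAK-931-1) and 128 (TAK-931-2), a log2 fold change of 3.73 (SE 0.92). The summed level of 15 T cell markers was between 98.2 and 119.8 CPM in vehicle and at 208 (TAK-931-2) and 1686 (TAK-931-1) after treatment, and 13 of the 15 were higher in both treated libraries. Cd28 and Cd6 made up most of this sum in vehicle, with Cd28 at 37.5 and 38.2 CPM and Cd6 at 34.0 and 31.9, and Cd6 was at 44.8 and 19.95 CPM in TAK-931. The median log2 ratio of the 15 markers to the vehicle mean was 6.18 for TAK-931-1 and 2.13 for TAK-931-2. For 7 NK cell markers the sum was between 18.3 and 33.4 CPM in vehicle and 57.4 and 241 in TAK-931, with 6 of 7 higher in both. Klrk1 made up 26.3 (Vehicle-1) and 16.4 CPM (Vehicle-2) of this sum. It overlapped between the groups, at 76.9 CPM in TAK-931-1 and 25.2 in TAK-931-2. The 12 monocyte and macrophage markers summed to between 557 and 657 CPM in vehicle and to 1716 and 9564 in TAK-931. Of them, 11 of 12 were higher in both, against 30.0% of all genes tested. None of these 3 lists had a marker at 0 in all libraries. The part of these cells in the level of the 10 genes was not tested.

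Other marker lists moved less evenly. Of 8 dendritic cell markers 7 were higher in both treated libraries (sum 24.2 to 29.3 CPM in vehicle, 66.7 and 306 in TAK-931), as were 5 of 6 fibroblast markers (1857 to 2108 against 5052 and 14642 CPM). Of 6 endothelial markers 3 were higher in both (224 to 241 against 236 and 803 CPM), and of the 3 neutrophil markers tested Csf3r was. The share of all genes tested that was higher in both was 30.0%. The sum of the 5 neutrophil markers in the tables was 6.29 to 6.83 against 15.2 and 129 CPM, of which Csf3r made up 15.1 and 115, while S100a8 and S100a9 had 0 and 2 counts in TAK-931-2, fewer than in either vehicle library. Plasma cell markers, which stand for the J558 cells, summed to between 9717 and 10286 CPM in vehicle, to 4801 in TAK-931-1 and to 13646 in TAK-931-2, so the sum in the treated tumours lay on opposite sides of the vehicle range. Jchain made up 8124 CPM of the sum in TAK-931-2, and of the 8 markers 3 (Sdc1, Xbp1 and Mzb1) were lower and 0 higher in both treated libraries. Of the 13669 genes tested, 4474 were lower in both and 4097 higher in both. The labels call J558 a B lymphocyte line, and of 8 B cell markers Pax5 had 0 counts in every library, while the sum of the list was 202 to 244 CPM in vehicle and 131 and 239 in TAK-931. Of the 4 B cell markers tested, 1 (Cd22) was higher and 1 (Cd79b) lower in both treated libraries. Cd79b made up 167 and 209 CPM of the vehicle sums. Cd22 was at 1.42 and 1.32 CPM in vehicle and 41.7 and 11.4 in TAK-931. The part of these lists in the result was not tested either.

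Set against Ptprc within each library, the 10 genes fell into different patterns. Of all genes tested, 92.1% were lower relative to Ptprc in both treated libraries and 0.907% were higher, since Ptprc itself was higher there, and of the 10 genes 6 were lower and 3 higher. The ratio of Il2rg to Ptprc was 0.612 (Vehicle-1) and 0.484 (Vehicle-2) against 0.414 (TAK-931-1) and 0.472 (TAK-931-2), within a narrow range although the level of Il2rg itself spanned 10.1 to 262 CPM. The ratio of Il2rb was higher in both treated tumours, at 0.170 and 0.0576 in vehicle and 0.412 and 0.353 in TAK-931. The ratios of Il21r (0.113 and 0.0980 against 0.144 and 0.156) and of Il7r (0.0291 and 0.0173 against 0.0471 and 0.0389) were also higher in both treated libraries. For Il12rb2 the groups overlapped.

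Against the T cell receptor complex genes the order was another. Summed Cd3d, Cd3e and Cd3g stood at 5.22 and 1.68 CPM in vehicle and 441 and 24.9 in TAK-931, and relative to this sum 0 of the 10 genes were higher in both treated libraries, 7 were lower in both, and Il2rb, Il21r and Il12rb2 overlapped. Since the sum itself was so much higher in TAK-931, 95.8% of all genes tested were lower in both relative to it, and 0.256% were higher in both. For Il2rb this ratio was 1.19 and 0.714 in vehicle and 0.592 and 1.81 in TAK-931. For Il21r it was 0.795 and 1.21 against 0.206 and 0.799, and for Il7r, which was lower in both, 0.205 and 0.214 against 0.0676 and 0.199.

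Besides Il2rg, whose treated libraries lay just under the vehicle libraries, 5 genes were lower relative to Ptprc in both treated libraries. The ratio of Jak3 was 1.71 and 2.84 in vehicle and 0.198 and 0.542 in TAK-931, and that of Il4ra was 1.27 and 2.86 in vehicle and 0.376 and 1.01 in TAK-931. Il15 stood at 0.0744 and 0.0663 of Ptprc in vehicle and at 0.0132 and 0.0224 in TAK-931. For Il15ra the ratios were 0.228 and 0.458 against 0.0504 and 0.128, and for Il12rb1 they were 0.220 and 0.329 against 0.0610 and 0.0654. A level above 1 relative to a pan-leukocyte gene, as for Jak3 and Il4ra in the vehicle tumours, is a ratio of CPM and not a number of cells.

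**Figure D4:**
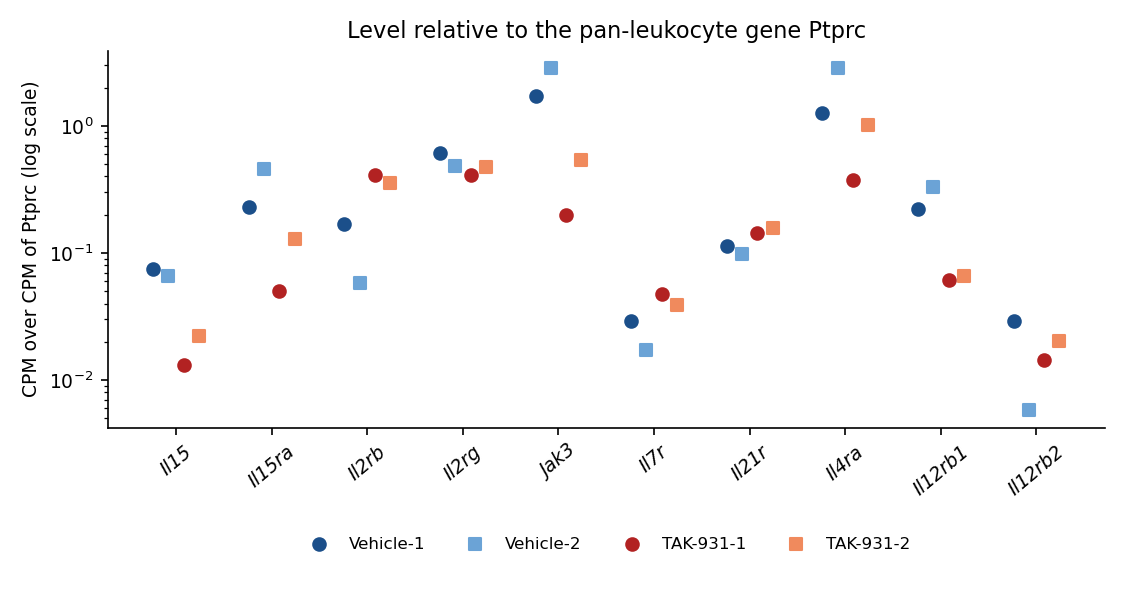
CPM of each gene divided by the CPM of Ptprc in the same library (y axis, log scale), where a point is 1 library. Il2rg lies between 0.414 and 0.612 in all 4 libraries and is slightly lower in both TAK-931 libraries, Il2rb, Il21r and Il7r are higher in both TAK-931 libraries, and Jak3, Il4ra, Il15, Il15ra and Il12rb1 are also lower in both.

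Promoter sequence was available for 7 of the 10 genes, with 2 promoters for Il15ra, from RefSeq (GRCm38.p6), each window covering 250 bases before to 50 after the start. They were searched on both strands for the core of a STAT site, TTCNNNGAA, and for a pair of half-sites bound by interferon regulatory factors, GAAANNGAA, since STATs are the factors these receptors activate. The STAT core was found in 2 of the 8 promoters, those of Il7r and Il12rb2, and in 8.3% of all 32851 promoters in the table. The interferon regulatory factor motif was found in 3 of 8, which were Jak3 and both promoters of Il15ra, and in 8.6% of all promoters. No match of one motif overlapped a match of the other. Stretches of 80 bases that begin 180 bases before the start are shown for the 4 promoters with a match there, read on the strand of the gene, with the match in capitals.
Il7r, chr15:9529977-9530056, minus strand, STAT core: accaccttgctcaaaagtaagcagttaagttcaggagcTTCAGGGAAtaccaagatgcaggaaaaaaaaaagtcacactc
Il12rb2, chr6:67376289-67376368, minus strand, STAT core: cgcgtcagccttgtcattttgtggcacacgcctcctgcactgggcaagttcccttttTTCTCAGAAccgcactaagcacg
Il15ra, chr2:11705113-11705192, plus strand, interferon regulatory factor motif on the opposite strand: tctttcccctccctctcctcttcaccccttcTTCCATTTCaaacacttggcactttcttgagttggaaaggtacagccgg
Jak3, chr8:71676203-71676282, plus strand, interferon regulatory factor motif: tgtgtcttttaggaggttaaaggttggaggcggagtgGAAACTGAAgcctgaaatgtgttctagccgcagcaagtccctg
Both promoters with the STAT core belong to genes that were at or under 1.07 CPM in the vehicle tumours. A match in these letters is a description of the sequence, and binding of a factor was not measured.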

How the data were processed

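RNA from 4 tumours (2 Vehicle, 2 TAK-931) was sequenced, and each label was taken as an independent sample, so p-values measure the spread between these tumours. The authors deposited raw read counts per gene, not normalized, together with an exon length per gene (another unit, bases). The submitters' processing notes name STAR 2.6.1c, featureCounts and mm10. The annotation and the strand setting are not given in the sources used here, so overlapping genes and close paralogs are uncertain. Totals were 16487902 to 19589339 counts. Odd values made up 17.9% to 23.9% of the counts up to 20, so both mates of a read pair appear to be counted and counting intervals are too narrow. The tables held 27 date-like symbols, none of them a gene named here.

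Genes were filtered with filterByExpr (minimum count of 10), scaled by TMM and tested for TAK-931 against vehicle with edgeR 4.0.16 (robust quasi-likelihood test, R 4.3.3), two-sided, with Benjamini-Hochberg adjustment at 0.05 over all 13669 genes. Library log2 ratios used a prior count of 2, and a count of 0 was taken to allow 3 counts. Each choice was changed in turn: scaling by size factors (median of ratios) or by library size alone, dropping the filter or asking for 10 counts in each of the libraries, blocking on the replicate number, leaving out single libraries, replacing edgeR by DESeq2 1.42.0 or by limma-voom (limma 3.58.1), halving the counts, an adjusted p under 0.01 and a prior count of 0.5. The 10 genes, the pathway and marker lists and every test were chosen with earlier results of these data known; the named genes are all of the 10, genes of those lists, and Ptprc. Values of some genes of the lists are not reported here. Promoter windows came from RefSeq (GRCm38.p6). The fits were tested on simulated data.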

Additional observations from a re-analysis of the deposited data

How the results depend on the processing

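With 2 libraries per group and a wide spread within the treated pair, few settings gave adjusted calls. Of 138 values for single genes under the alternatives, 0 changed direction. Among the 118 with a test, 96 stayed on their side of the threshold and 22 passed it only under the alternative, and the 20 library ratios with another prior count, which have no test, moved by less than the spread between replicates. Replicate numbers are not stated to mark a shared cage, day or batch. The deviations of same-numbered libraries correlated at 0.0041 across genes, a single value that cannot decide whether same-numbered tumours were paired. With the replicate block, 144 genes were called and 3 of the 10 (Il2rb, Il2rg, Il21r). DESeq2 called 1411 genes and 5 of the 10 (Il2rb, Il2rg, Il7r, Il21r, Il4ra). Under limma-voom 3 of the 10 and 6 pathway genes had an unadjusted p under 0.05, as did 14.3% of all genes tested there. The median log2 fold change of the pathway genes was 0.68 with at least 10 counts in every library, a filter that left out Il12b, Il27, Il2ra, Ifng and Tbx21 among others, and 1.38 with halved counts. In the edgeR fit of all 4 libraries 0 genes passed an adjusted p under 0.01.

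With each library left out in turn, where a lone library is assumed to vary like the others, the genes called ran from 0 to 8424 and the calls among the 10 from 0 to 10. Without TAK-931-1 there were 3996 genes and 4 of the 10 (Il7r, Il15ra, Il21r, Il4ra), and without TAK-931-2 there were 8424 genes and 10 of the 10. At an unadjusted p under 0.05 the 10 gave between 4 and 10 passes and the pathway genes between 7 and 21. The share of all genes passing in these fits ran from 6.86% (without Vehicle-1) to 63.1% (without TAK-931-2, where all 10 passed), and was 40.8% without TAK-931-1. The cause of these differences was not tested. Counts of under 20 in the vehicle tumours limit Il7r and Il12rb2.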
